A study of Mus musculus with 576 samples.

Results

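Snai1, Snai2, Twist1, Twist2, Zeb1, Zeb2, Prrx1, Vim, Cdh2 and Cdh11 are genes by which mesenchymal cells are commonly told from epithelial cells. The set was given by symbol. The rule uses no measured value, although earlier results of these data were known when it was drawn up. All 10 genes were found among the 36658 genes listed in each of the 3 count tables. Their RNA was followed in single GFP+ cells of the E12.5 mouse dorsal pancreas, sorted into wells and profiled with the full-length Smart-seq2 method. The 576 wells came from 3 reporter lines, each with 2 plates of 96 wells, called here plate A and plate B.

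The first line, Nkx2.5-Cre;mTmG, carries Cre as a targeted allele at Nkx2.5 together with the mTmG reporter, which switches from membrane tomato to membrane GFP after recombination. In Nkx3.2-Cre;mTmG the Cre is at Nkx3.2. GFP in both lines therefore marks cells that have had the driver on and all their descendants, whether or not the driver is still on. The Prox1 line, Prox1-GFP, is a transgene that reports Prox1 activity directly and needs no Cre. All lines were on C57BL/6J and the embryos were of both sexes. The labels name no embryo or litter, so a line counts as 1 sample and its cells are not taken as replicates. No test was run. Levels are CPM, counts per 1000000: the counts of all cells in a group were added up and scaled to that total. Their exact 95% Poisson intervals, and the exact 95% binomial intervals of shares of cells, cover counting error only, and so do the limits given where no cell held a gene, which are 3 cells of the group and apply to detection, not expression, since Smart-seq2 reads carry no molecular identifier. The spread between the 2 plates of a line is the only other measure of error. The Prox1 libraries bear a separate run of library numbers, so library batch and the Prox1 line cannot be told apart.

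Of the 576 cells, 549 passed the cell filter, with 224814 to 1512736 counts each. Clustering without the 10 genes gave 413 mesenchymal cells (336 from the Cre lines, in equal numbers, and 77 with Prox1-GFP), 28 mesothelial cells (5 Nkx2.5 and 23 Nkx3.2), and 88 epithelial and 19 endocrine cells, both from the Prox1 line alone. States were named from fixed marker lists, so the marker levels below describe the states and are no independent check. In mesenchymal cells of the Nkx2.5 and Nkx3.2 lines none of 9 epithelial markers reached 1 CPM, and 9 of 10 mesenchymal markers did, Foxf1 being the exception. In mesenchymal cells of the Prox1 line 1 epithelial marker, Epcam at 3.12 CPM, and all 10 mesenchymal markers did. Epithelial cells had all 9 epithelial markers at 47.2 CPM or more, and a summed 53.5 CPM over the 10 mesenchymal markers. All 11 endocrine markers were present in endocrine cells. Mesothelial cells of the Nkx3.2 line had 6 of 7 mesothelial markers at 1 CPM or more, but also 9 of 10 mesenchymal markers, at 2561 CPM summed against 5165 CPM in mesenchymal cells of the same line. A single cell on Prox1 plate A carried immune markers (C1qa at 2953 CPM, Csf1r at 2247 CPM) and was left out of every state. That cell had Zeb2 at 317 CPM and Vim at 229 CPM, with the other 8 members at 0.

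Snail and Zeb proteins are zinc finger repressors that bind E-boxes, short DNA motifs of the form CACCTG, and Twist proteins are basic helix-loop-helix factors that bind E-boxes as dimers. Cdh1 (E-cadherin), which joins epithelial cells to each other, is their best known repressed gene. Prrx1 is a homeobox factor of mesenchyme, Vim codes for the intermediate filament vimentin, and Cdh2 (N-cadherin) and Cdh11 (OB-cadherin) are cadherins of mesenchymal and neural tissue. In the developing pancreas a branching epithelium is surrounded by mesenchyme, and endocrine precursors that turn on Neurog3 leave the epithelial layer.

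Promoter sequences are shown first because 6 of the 7 factors bind E-boxes, and CACCTG is the form best known for the Snail and Zeb pairs. The 250 bases before the RefSeq gene start (GRCm38.p6, gene strand, 5′ to 3′) are given for the member whose promoter held the motif. They are also given for 3 of the 4 related genes that held it and were called lower in mesenchyme, as described further on. The remaining gene, Krt18, is not shown. CACCTG, searched on both strands (CAGGTG on the other), is in capitals. The Snai1 promoter lies at chr2:167537945-167538194 (+), Elf3 at chr1:135258473-135258722 (-), Krt7 at chr15:101412153-101412402 (+) and Krt8 at chr15:102004343-102004592 (-).
Snai1: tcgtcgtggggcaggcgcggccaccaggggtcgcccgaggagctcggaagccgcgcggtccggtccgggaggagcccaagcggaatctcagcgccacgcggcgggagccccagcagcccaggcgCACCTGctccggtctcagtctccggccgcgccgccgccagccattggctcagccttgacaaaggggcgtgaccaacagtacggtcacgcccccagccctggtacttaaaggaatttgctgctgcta
Elf3: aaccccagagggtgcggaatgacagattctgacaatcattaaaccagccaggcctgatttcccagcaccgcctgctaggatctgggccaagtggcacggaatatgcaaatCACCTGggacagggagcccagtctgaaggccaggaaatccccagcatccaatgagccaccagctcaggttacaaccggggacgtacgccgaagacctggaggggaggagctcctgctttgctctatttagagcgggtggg
Krt7: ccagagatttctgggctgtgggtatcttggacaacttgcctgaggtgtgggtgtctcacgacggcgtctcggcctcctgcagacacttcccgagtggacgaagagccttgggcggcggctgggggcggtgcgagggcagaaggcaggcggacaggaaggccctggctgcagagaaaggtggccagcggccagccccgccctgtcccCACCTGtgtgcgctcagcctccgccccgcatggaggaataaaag
Krt8: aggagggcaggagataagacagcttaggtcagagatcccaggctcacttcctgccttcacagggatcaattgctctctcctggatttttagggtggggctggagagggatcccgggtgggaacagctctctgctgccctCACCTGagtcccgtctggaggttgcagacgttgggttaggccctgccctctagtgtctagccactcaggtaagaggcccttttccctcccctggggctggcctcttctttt
The motif begins at position -126 from the gene start in Snai1, -140 in Elf3, -44 in Krt7 and -111 in Krt8. Of all 32851 promoters of the same 300-base window (250 before and 50 after the start), 20.2% held it on either strand. Of the 10 members, 6 had a promoter entry, and 1 of these 6, Snai1, held the motif. In the related lists described further on, it was held by 3 of 5 epithelial state factors with an entry (Elf3, and Grhl3 and Elf5, which were not called), 3 of 9 intermediate filament genes, 1 of 12 other cadherins, 1 of 6 catenins, 1 of 9 corepressors and regulators, and 0 of 7 other transition factors. By call, only genes with a promoter entry could be read, and called genes without one are not counted. Of these, 4 of 5 called lower in mesenchyme held the motif, namely Elf3 and the keratins Krt7, Krt8 and Krt18. The motif was held by 1 of 8 called higher and 5 of 41 not called. Cdh1 had no promoter entry. A gene was counted if any of its promoters held the motif, while the share of 20.2% is over promoters, so the counts cannot be read directly against it. A match is a stretch of letters and does not show that a factor binds there.

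All 10 members were detected in mesenchymal cells (coordinates in GRCm38). Among the 413 mesenchymal cells, Vim (chr2:13573927-13582826) was detected, at 1 count or more, in 98.8% of cells (95% interval 97.2 to 99.6) and Cdh11 (chr8:102632095-102785642) in 97.8% (95.9 to 99). Zeb2 (chr2:44983632-45117395) followed in 90.6% and Snai2 (chr16:14705852-14709385) in 79.9%. Cdh2 (chr18:16588877-16809246) was found in 74.8% of cells, Zeb1 (chr18:5591860-5775467) in 64.4%, Prrx1 (chr1:163245119-163313710) in 58.4% and Twist2 (chr1:91801461-91848028) in 58.1%. The rarer pair were Snai1 (chr2:167538195-167542814) at 44.8% and Twist1 (chr12:33957671-33959829) at 14.5% (11.3 to 18.3). Of the 10 members, 8 were in at least 50% of mesenchymal cells, and 7 after each cell was thinned to 100000 counts. Cdh1, which mesenchyme should lack, was detected in 1.69% of these cells.

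Levels of different genes can be compared only per length. Per kilobase of mean transcript length, mesenchymal cells had 385 CPM of Vim, 170.8 of Cdh11, 105.2 of Zeb2 and 91.2 of Snai2. The next values were 43.6 CPM per kilobase for Zeb1, 37.7 for Cdh2, 28.4 for Twist2, 23.97 for Snai1 and 23 for Prrx1, and Twist1 was lowest at 2.22. With the longest transcript instead, Vim, Cdh11, Twist2 and Twist1 kept their places, Zeb2 fell behind Snai2 and Cdh2 to 25.2, and Zeb1 moved from the fifth to the ninth place at 13.04. The places of the members between Cdh11 and Twist1, other than Twist2, therefore depended on the length used.

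**Figure D1:**
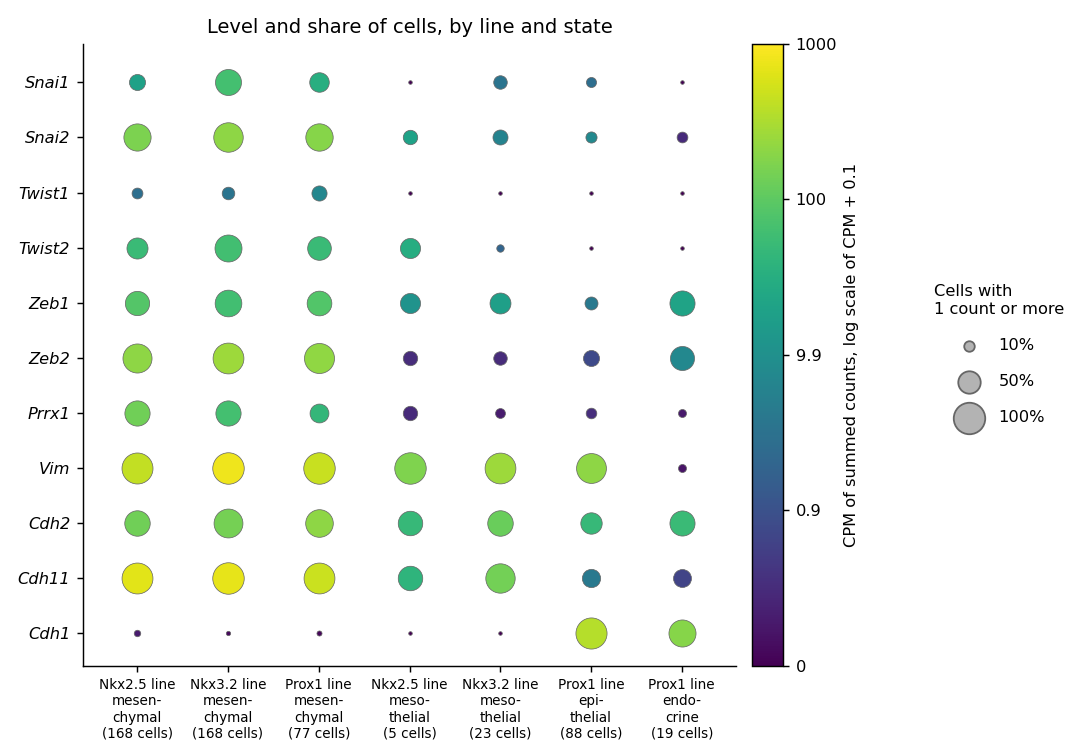
Level and share of cells for the 10 members and Cdh1 in each line and state. The colour is the CPM of summed counts on a log scale of CPM + 0.1, and the area of a circle is the share of cells with 1 count or more. Mesenchymal columns are filled for every member, and Vim and Cdh2 extend to mesothelial and epithelial columns. The endocrine column lacks Vim but keeps Zeb1 and Cdh2, and Zeb2 at a lower level.

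The Prox1 line holds mesenchymal and epithelial cells on the same plates, so the 2 states were compared there, 77 against 88 cells. A gene was called when its CPM differed at least 2-fold in the same direction on both plates, among genes with a mean of at least 5 CPM over the 2 groups. By this rule 9 of the 10 members were called higher in mesenchymal cells. Twist1, the other member, lay under the filter. Over all 11453 genes passing the filter 10.3% were called higher. The members' median log2 ratio over the 9 that passed was 4.63, against 0.00 over all genes. All 10 genes were picked as mesenchymal genes, so this direction was known beforehand. The filter takes the mean of the 2 groups. Snai1, Twist2, Zeb1, Zeb2, Prrx1 and Cdh11 were under 5 CPM in epithelial cells and passed through their mesenchymal level alone. This in part fixed their calls and the median ratio.

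Both Snail factors were far lower in epithelium. Snai2 was at 239 CPM on plate A and 152.4 CPM on plate B in mesenchymal cells, and at 3.66 and 11.98 CPM in epithelial cells. This was 24.8-fold over both plates, with a plate range of 12.7 to 65.2. Snai1 was at 39.2 and 26.4 CPM in mesenchymal and at 4.02 and 0.948 CPM in epithelial cells, a 12.2-fold difference (9.75 to 27.9). The wide plate ranges came from the epithelial side, where few cells held either gene (8 of 88 cells for Snai1, 10 of 88 for Snai2).

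Neither Twist gene had a count in any of the 88 epithelial cells, which allows a share of cells of up to 3.41%. Twist2 in mesenchymal cells was at 63.7 CPM on plate A and 44.3 CPM on plate B, so it was at least 1293-fold higher (against 3 counts over the group). Twist1 was at 10.96 and 4.46 CPM, at least 175.8-fold higher. Twist2 was thus the main Twist transcript here: per kilobase of mean transcript length, mesenchymal cells of the 3 lines together had 28.4 CPM of Twist2 and 2.22 CPM of Twist1.

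The Zeb factors differed from each other in the pooled level that remained in epithelial cells, though few cells made up that of Zeb1. Zeb2 fell from 213 CPM in mesenchymal to 0.693 CPM (0.522 to 0.916) in epithelial cells, 307-fold, with plate ratios of 226 and 445. Zeb1 was at 80.8 CPM in mesenchymal and 4.00 CPM (3.56 to 4.49) in epithelial cells, 20.2-fold (19.9 to 24.4). Prrx1 was at 44.99 against 0.232 CPM, 194.2-fold (133.3 to 269.7). Prrx1 also varied most between the mesenchymal cells of the 2 plates, with 81.99 CPM and 54.5% of cells on plate A and 19.9 CPM and 20.5% of cells on plate B.

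Vim and Cdh2 were the members that epithelial cells shared. Vim was at 485 and 443 CPM in mesenchymal and at 218 and 193.1 CPM in epithelial cells of plates A and B, and 89.8% of epithelial cells held it. The ratio of 2.23 was close to the limit, and the call was lost without the proliferating clusters (1.47) and after thinning (2.03 over both plates). Cdh2 was at 295 and 149.4 CPM in mesenchymal cells and at 36.98 and 61.3 CPM in epithelial cells, where 45.5% of cells held it. Its ratio was 4.30 (2.44 to 7.97), and without cluster 7, an epithelial cluster described further on, it was 3.27 and no longer called, and without the proliferating clusters it was 12.7. Cdh11 behaved otherwise, at 573 and 419 CPM in mesenchymal against 5.64 and 2.32 CPM in epithelial cells, a 117.7-fold difference (101.6 to 180.4). Cdh1 was the mirror image, at 354 CPM in epithelial cells and 0.0170 CPM in mesenchymal cells, or at least 6965-fold lower there.

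**Figure D2:**
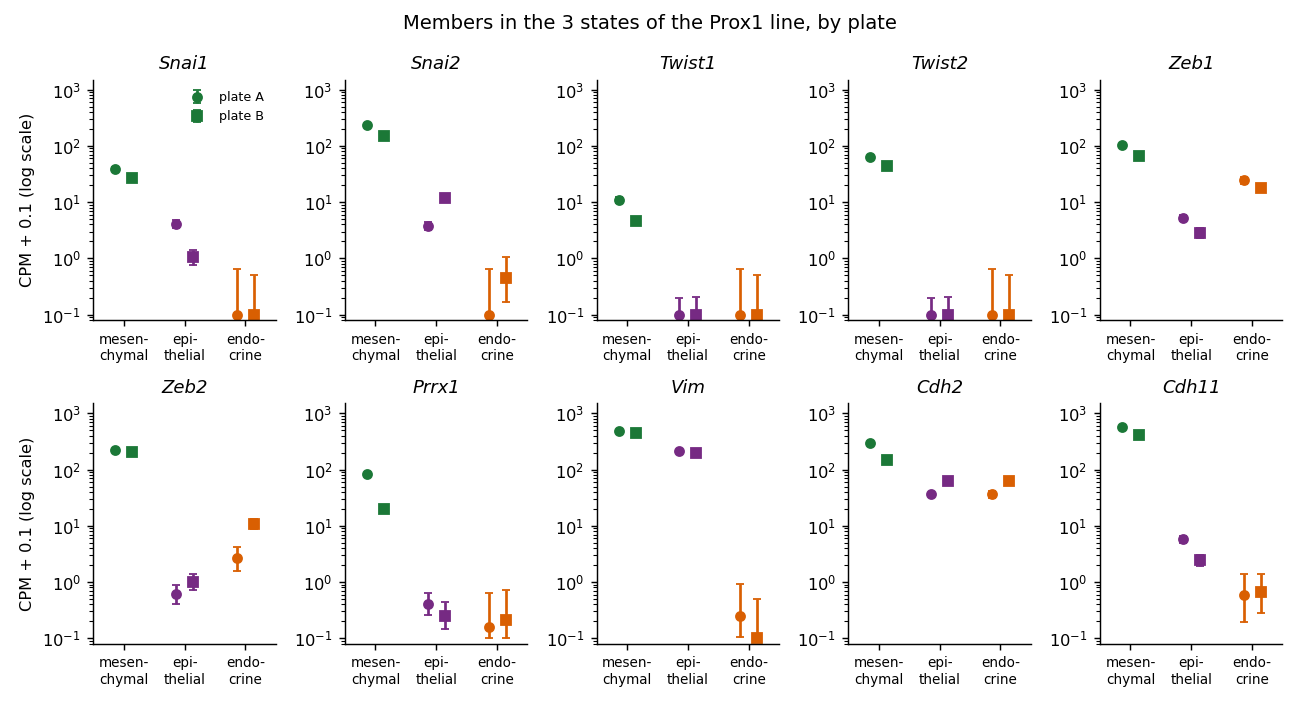
Each panel gives 1 member in the 3 states of the Prox1 line as CPM + 0.1 on a log scale, with a circle for plate A and a square for plate B and exact 95% Poisson intervals as bars. The mesenchymal points stand above the epithelial points in all 10 panels, the gap is smallest for Vim and Cdh2, and Vim has 0.149 and 0 CPM in endocrine cells.

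Endocrine cells were then compared with the other epithelial cells of the same plates, 19 against 88 cells. Of the 10 members 3 passed the filter, and 2 were called. Zeb1 was called higher, beside 12.8% of 11647 genes, and Vim lower, beside 16.2%. Each passed the filter through its higher group alone, which in part fixed its call. Zeb1 was at 24.2 CPM on plate A and 17.8 CPM on plate B in endocrine cells, 5.13-fold over epithelial cells (4.69 to 6.61), and was found in 12 of 19 cells. Without the proliferating clusters, which removes epithelial cluster 4, the ratio was 1.69 and not called. Vim was at 0.149 and 0 CPM, detected in 1 of 19 endocrine cells (5.26%, 0.133 to 26.03) against 79 of 88 epithelial cells, at least 1083-fold lower.

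Cdh2 was at 35.99 and 62.9 CPM in endocrine cells, a ratio of 1.06, and was not called. Without the proliferating clusters the ratio was 3.04, also not called. The 19 cells were uneven in it. The 6 cells that still held Neurog3 at 5 counts or more had 1.71 CPM of Cdh2, and the 13 others had 76.2 CPM, a split made after the values were seen. Zeb2, under the filter, was at 7.30 CPM in endocrine and 0.693 CPM in epithelial cells, and 1 endocrine cell at 82.9 CPM held most of it. The remaining members were near or at 0 in endocrine cells: Snai2 at 0.196 CPM, Prrx1 at 0.0874, Cdh11 at 0.529, and Snai1, Twist1 and Twist2 without a count, which allows a share of cells of up to 15.8%. Cdh1 was at 190 CPM in endocrine cells, not called.

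Mesothelial cells, which form the outer lining of the organ, were compared with mesenchymal cells of the Nkx2.5 and Nkx3.2 lines, 28 against 336 cells. Only plate B of the Nkx3.2 line held at least 5 cells of both kinds, so calls rest on that plate, with 20 mesothelial cells. Of 9 members that passed the filter, 8 were called lower in mesothelial cells, beside 13.8% of 11311 genes. Of these, Snai1, Zeb2 and Prrx1 were under 5 CPM in mesothelial cells and passed through their mesenchymal level alone. This in part fixed their calls. Cdh2 alone was not called. It was at 127.3 CPM in mesothelial and 148.3 CPM in mesenchymal cells of that plate, a ratio of 0.858, and was found in 18 of all 28 mesothelial cells.

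Zeb2 and Prrx1 were nearly absent from the mesothelium. On plate B Zeb2 was at 0.192 CPM against 268 CPM in mesenchymal cells, a ratio of 7.14e-04, and Prrx1 was at 0.128 against 57.9 CPM. Zeb1 was retained further, at 16.1 against 66.4 CPM (ratio 0.242), in 12 of 28 cells. Snai1 was at 4.09 against 76.6 CPM and Snai2 at 7.52 against 184.2 CPM. Both were thus lower, with ratios of 0.0533 and 0.0408. Twist2 had no count on plate B. Over all 28 cells it was at 8.05 CPM, most of it from 1 Nkx2.5 cell at 149.3 CPM that held no Upk3b, a mesothelial marker. Vim was at 204 against 929 CPM (0.219) and Cdh11 at 169.6 against 706 CPM (0.240), and 27 and 23 of the 28 cells held them. Cdh1 had no count in any mesothelial cell, which allows a share of up to 10.7%. The mesothelium so measured had neither Cdh1 nor more than traces of Zeb2 and Prrx1, while Vim, Cdh2 and Cdh11 were present.

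The mesenchyme of the lines was compared next. Nkx2.5 and Nkx3.2 mesenchyme, with equal numbers of cells, lay on separate plates, so a call needed at least 2-fold in the same direction in all 4 pairs of plates. Of the 9 members that passed the filter 2 were called, beside 3.26% of 10980 genes called in either direction (1.29% higher and 1.97% lower in Nkx2.5 mesenchyme). Snai1 was lower in Nkx2.5 mesenchyme, at 26.9 and 10.8 CPM on plates A and B against 56.1 and 76.6 CPM in the Nkx3.2 line (0.299, pairs of plates 0.142 to 0.481). It was found in 25% of Nkx2.5 and 67.9% of Nkx3.2 mesenchymal cells, and after thinning in 21.4% and 66.1%. Prrx1 was higher in Nkx2.5 mesenchyme, at 133.3 and 138.7 CPM against 66.2 and 57.9 CPM (2.16, 2.01 to 2.40). The share of cells with Prrx1 was 63.7% in both lines.

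Both calls were lost under some settings. With the mean of single-cell CPM, and after thinning, a pair of plates fell under 2-fold for both genes, although the pooled ratios stayed near the main ones (Snai1 0.319 and 0.318, Prrx1 2.09 and 2.15). Without the proliferating clusters Snai1 was at 0.331 and not called, and without cluster 6 Prrx1 was at 2.12 and not called. Of the others, Vim was at 429 against 782 CPM (0.549, 0.416 to 0.682), below 1 in all 4 pairs but not called. Zeb1 was at 85.8 against 62.1 CPM and Zeb2 at 209 against 262 CPM, each on the same side in all 4 pairs and within 1.5-fold. Snai2, Twist2, Cdh2 and Cdh11 had ratios of 0.771, 0.842, 0.917 and 0.918. Nkx3.2 cells had more genes detected per cell, a median of 7314 against 5833, and the part of this in shares of cells was not tested beyond thinning. Snai1 and Snai2 were together at 5 counts or more in 14.9% of Nkx2.5 and 59.5% of Nkx3.2 mesenchymal cells.

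Prox1 mesenchyme against Nkx3.2 mesenchyme gave no call among the 10 members, beside 2.87% of 11006 genes. The comparison shares its Nkx3.2 cells with the one before. Twist1 had the highest ratio, 7.09 against 3.34 CPM (2.12, pairs 1.04 to 5.82). Snai1 was at 31.6 against 64.1 CPM (0.493, 0.345 to 0.699) and Vim at 460 against 782 CPM (0.588, 0.476 to 0.705), both below 1 in all 4 pairs. Prrx1 took both sides, with pairs from 0.301 to 1.42, as its values on the Prox1 plates lay far apart. Without Prox1 and Nkx3.2 plates A 3 members passed the rule (Snai1, Prrx1 and Vim, all lower), and without plates B 2 others did (Twist1 and Cdh2, both higher), so no member was called on both. These settings leave a single pair of plates in place of 4, so genes pass more easily. The share over all genes under them is not given, so these counts cannot be read against 2.87%.

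**Figure D3:**
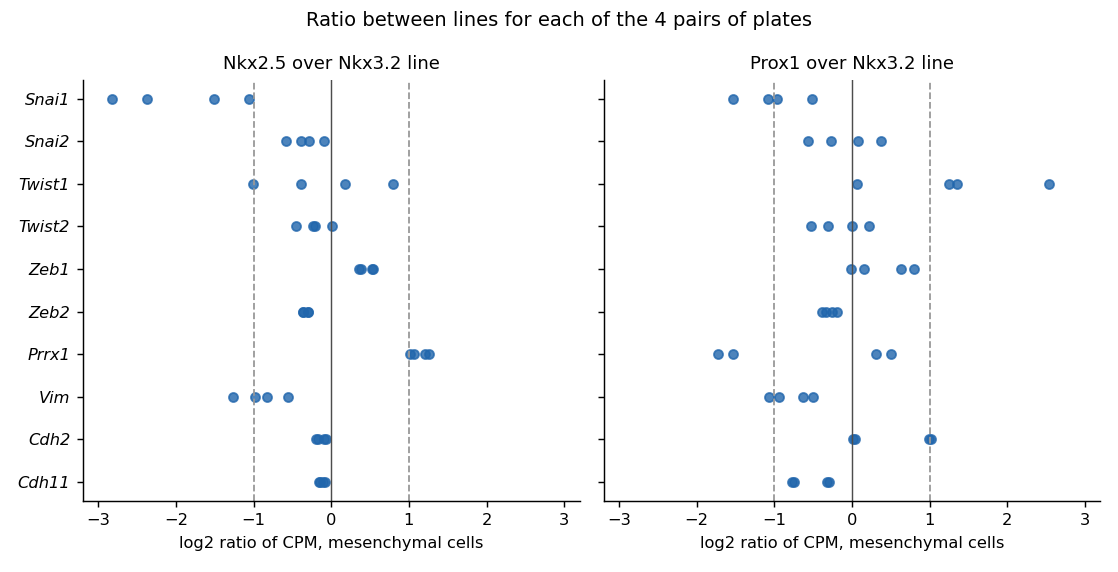
The log2 ratio of CPM in mesenchymal cells for each of the 4 pairs of plates, Nkx2.5 over Nkx3.2 on the left and Prox1 over Nkx3.2 on the right. Dashed lines mark 2-fold. Snai1 and Prrx1 have all 4 points beyond a dashed line on the left, and no member does so on the right.

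Within the mesenchyme the members were read in the 7 mesenchymal clusters, numbered as they came out. Twist1 gave the sharpest pattern. Cluster 3 (64 cells, 43 of the Nkx3.2 and 20 of the Nkx2.5 line) had 0.0334 CPM of Twist1, in 1 of 64 cells, while the other 6 clusters had 3.25 to 5.35 CPM. In cluster 3 Twist1 was at 0.102 CPM in Nkx2.5 cells and 0 in Nkx3.2 cells. Cluster 5 was also low within the Nkx2.5 line, at 0.334 CPM in 15 cells, but not in Nkx3.2 cells, at 9.40 CPM. Pooled over the lines, cluster 3 also had the highest Vim (835 CPM), the highest Snai1 (66.95 CPM) and the lowest Zeb1 (42.6 CPM) of the 7 clusters. Vim and Snai1 were highest there within each Cre line too, while Zeb1 was lowest there in the Nkx2.5 line alone (25.7 CPM), and in the Nkx3.2 line in the 5 cells of cluster 2 (34.8 CPM).

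Prrx1, pooled over the lines, was lowest in clusters 9 and 3, at 24.1 and 28.8 CPM, and highest in cluster 2 at 184.6 CPM. Of the 71 cells of cluster 2, 61 were of the Nkx2.5 line, and Prrx1 there was at 194.5 CPM in Nkx2.5 cells but at 52.99 CPM in the 5 Nkx3.2 cells. In cluster 3 the values were 52.9 CPM in Nkx2.5 and 17.4 CPM in Nkx3.2 cells, and in cluster 1 127.6 and 73.2 CPM. The lines were closer in cluster 0, at 81.3 and 78.2 CPM, and in cluster 5, at 125.8 and 130.2 CPM. Prrx1 was thus higher in Nkx2.5 cells in 4 of the 5 clusters with at least 5 cells of both lines, and the part of the clusters' makeup in the line difference was not tested. Snai1 was lower in Nkx2.5 cells in each of these 5 clusters, for example 22.01 against 65.3 CPM in cluster 0, and in cluster 1 7.47 against 55.5 CPM.

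Zeb2 was highest in cluster 6 (429 CPM, all 36 cells), which is led by the mural genes Acta2, Tagln and Myh11 of vessel walls and was at 429 CPM in the Nkx3.2 and 487 CPM in the Prox1 cells. Cdh2, pooled over the lines, was highest in cluster 9 at 316 CPM, against 122.98 to 191.6 CPM in the others. This held within the Nkx3.2 line (318 CPM), but in Prox1 cells cluster 2 was higher (479 CPM in 5 cells, against 345 CPM in cluster 9), and in Nkx2.5 cells cluster 0 was highest (175.3 CPM). Pooled over the lines, Cdh11 and Snai2 varied least, with highest over lowest cluster 1.57 and 1.54. Within a line they varied more, Snai2 from 53.1 CPM (cluster 9, 7 cells) to 265 CPM (cluster 0) in Nkx3.2 cells, and Cdh11 from 330 to 739 CPM in Nkx2.5 and from 292 to 1006 CPM in Prox1 cells.

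The 2 epithelial clusters were unlike in the members. Cluster 4 (56 cells, led by acinar and tip genes such as Ptf1a, and proliferating) had Zeb1 at 0.0599 CPM and Snai2 at 2.62 CPM. Cluster 7 (32 cells, led by Neurog3, Fxyd2 and others) had Zeb1 at 12.1 CPM and Snai2 at 17.7 CPM. Cluster 7 also had more Vim, 321 against 150.2 CPM, while Cdh2 was higher in cluster 4, at 63.6 against 16.93 CPM.

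Cluster 7 was split by Neurog3 at 5 counts, after the values were seen. The 13 cells with Neurog3 held most of this signal, with Snai2 at 43.5 CPM, Zeb1 at 29.3 CPM, Cdh11 at 18.1 CPM and Snai1 at 4.97 CPM. In the 19 cells without it these were at 0.139, 0.414, 2.25 and 0.138 CPM. The signal was in few cells, as 4 of 13 held Snai2, 2 held Zeb1, 1 held Cdh11 and 1 held Snai1 at 5 counts or more. Vim was at 291 CPM with and 342 CPM without Neurog3. Among the states in which Neurog3 or hormone genes were on, Vim was thus present in the Neurog3 cells of cluster 7 and near 0 in endocrine cells, also in the 6 endocrine cells with Neurog3 (0 CPM). No doublet caller was run, and the part of doublets in these few cells was not tested.

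**Figure D4:**
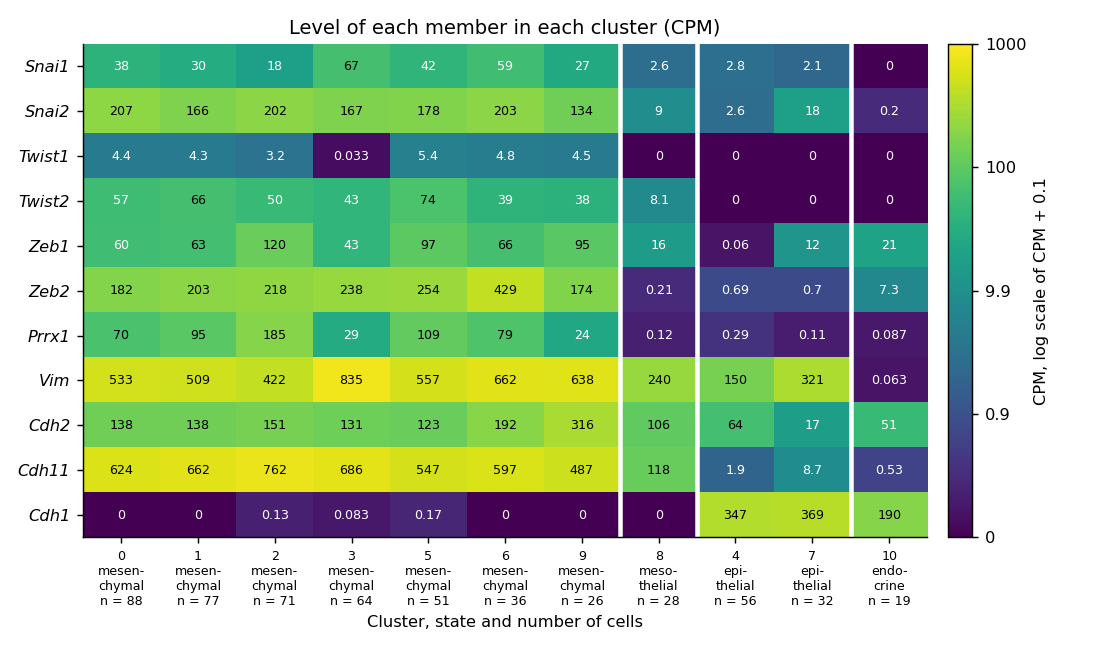
Level of the 10 members and Cdh1 in each of the 11 clusters, with the CPM written in each field and coloured on a log scale of CPM + 0.1; white lines part the states. Twist1 is dark in cluster 3, Prrx1 is highest in cluster 2, and Zeb1 parts epithelial cluster 4 (0.06) from cluster 7 (12).

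The 7 transcription factors were then counted in single cells at 5 counts or more. A mesenchymal cell held a median of 3 in the Nkx2.5, 5 in the Nkx3.2 and 3 in the Prox1 line, and 4 or more in 41.1%, 76.2% and 46.8% of cells. Only 6 of 413 mesenchymal cells held none. Zeb1 and Zeb2 were together in 48.4% of mesenchymal cells. All 7 factors were held by 4 cells of the Nkx3.2 line and 1 cell of the Prox1 line. Within a line, Spearman correlations between the members over cells were weak, with medians over the 45 pairs of 0.04, 0.01 and 0.07, and they share cell depth.

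Among the 88 epithelial cells, 13 (14.8%) held at least 1 factor at 5 counts or more. Snai1 was in 7 of them, Snai2 in 5, Zeb1 in 2, and Zeb2 and Prrx1 in 1 each. Of these 13 cells 8 were in cluster 4 and 5 in cluster 7, 11 held Cdh1 at 5 counts or more, and none had more than 3 of the 10 mesenchymal markers. They had a median of 7 of 9 epithelial markers, against 8 in the other 75 epithelial cells, which all held Cdh1. Snai1 and Snai2 were not found in the same epithelial cell, but too few cells held either for this to show that they exclude each other. The count depends on the limit used: Zeb2 was in 22 of 88 epithelial cells at 1 count, in 6.82% after thinning and in 1.14% at 5 counts.

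**Figure D5:**
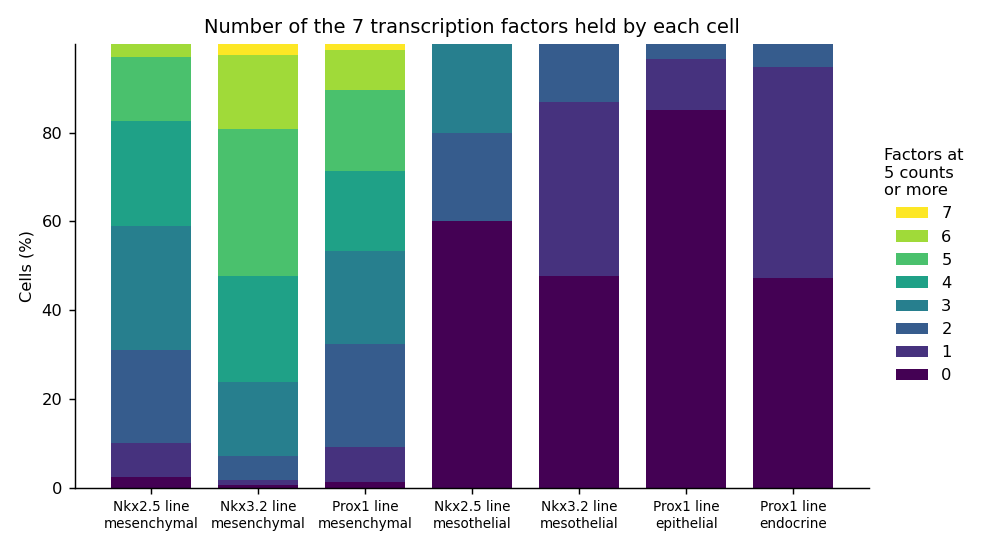
Share of cells (%) by how many of the 7 transcription factors they hold at 5 counts or more, for each line and state. The Nkx3.2 mesenchymal bar is shifted towards 5 and more factors, and 85.2% of epithelial cells hold none.

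Related genes were read from lists of the same pathway. In the Prox1 line 5 of 20 other cadherins passed the filter. Cdh13, an unusual cadherin without a cytoplasmic tail, was called higher in mesenchymal cells (12.2 against 0.138 CPM), and Cdh1, Cdh3 (P-cadherin, 4.12 against 123.9 CPM) and Cdh16 (0.0789 against 10.99 CPM) were called lower. These are 4 calls in either direction among 5 genes, beside 21.3% of all genes. The mesothelium stood apart in cadherins. There all 7 other cadherins that passed the filter were called higher than in mesenchymal cells, beside 12.9% of all genes, with Cdh3 at 371 against 6.67 CPM. The filter takes the mean of the 2 groups, so a low gene can pass through its higher group alone. All 4 cadherins called in the Prox1 line did so, and in the mesothelium at least Cdh13 did, which in part fixed their calls. None of 4 catenins that passed, the cytoplasmic partners of cadherins, was called between mesenchymal and epithelial cells.

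Of 6 epithelial state factors that passed, 5 were called lower in mesenchymal cells and Klf5, named here after its values were seen, was called higher at 8.85 against 2.22 CPM. All 6 were thus called, beside 21.3% of all genes called in either direction. Esrp1, Esrp2, Elf3, Ovol2 and Klf5 were each under 5 CPM in 1 group and passed the filter only through the group where they were higher. This in part fixed their calls, so the count is a description only. Esrp1 and Esrp2, splicing regulators of epithelia, were at 0 and 0.323 CPM in mesenchymal against 79.9 and 71.8 CPM in epithelial cells. Elf3 was at 0 against 67.7 CPM and Ovol2, a repressor of Zeb1 and other mesenchymal factors, at 0 against 12.6 CPM. Of 8 intermediate filament genes that passed, 4 were called higher and 4 lower, beside 10.3% of all genes called higher and 21.3% in either direction. Nefm, a neurofilament gene, was at 164.2 against 0.0472 CPM. It was at 292 CPM in endocrine cells, where it was also called higher than in epithelial cells. Krt8 was at 0.0339 against 1043 CPM, Krt19 at 0 against 84.9 CPM and Krt7 at 0.589 against 140 CPM. Nefm and these keratins passed the filter only through their higher group, which in part fixed their calls. The promoters of Krt7 and Krt8 are shown above.

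Keratins were also read in the other states. Endocrine cells, nearly without Vim, had Krt8 at 1367 CPM (not called) and Krt7 at 595 CPM (called higher than in other epithelial cells), but Krt19 was called lower there, at 12.8 against 84.9 CPM. Mesothelial cells, with Vim at 240 CPM, also had Krt19 at 219 CPM, Krt7 at 250 CPM and Krt8 at 114.1 CPM, all 3 called higher than in mesenchymal cells. Of 4 other transition factors that passed, 2 were called higher in mesenchymal than in epithelial cells, beside 10.3% of all genes. Tcf4 (E2-2), a dimer partner of Twist proteins, was at 180.5 against 46.4 CPM (3.89), and Klf8 at 9.65 against 1.06 CPM. Klf8 passed the filter only through its mesenchymal level, and was detected in 6 of 77 mesenchymal and 4 of 88 epithelial cells. In endocrine cells Klf8 was at 29.9 CPM, also called higher than in epithelial cells. All 11 corepressors and regulators of Snail and Zeb proteins passed the filter and none was called, with a median log2 ratio of 0.03.

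The genes whose level followed each member most closely were taken over the 11 groups of plate and state with at least 5 cells, by Pearson's r of log2(CPM + 1), among 11780 genes. The groups share plates and 6 of the 11 are mesenchymal, and the r values are given as a description only. Cdh11 was closest to Fbn1 (r = 0.997), a gene of microfibrils, then Gypc and Fbn2. Snai2 was closest to Pdgfrb (0.992), Islr and Tmem200a, and Snai1 to 9930012K11Rik (0.978), Ppp1r18 and Pdgfrb. Twist2 was closest to Ednrb (0.998), Slitrk5 and Mrvi1, and Twist1 to Gabrb2 (0.987), Bcat1 and Bmp5. Zeb1 went with Cnrip1 (0.980), Tgfbr3 and Fkbp14, and Zeb2 with Scube1 (0.984), Tbx3 and Rftn2. Prrx1 was nearest to Lyz2 (0.993), Rgcc and Plac9b, Vim to Capg (0.995), Fzd2 and Slc43a1, and Cdh2 to Ndnf (0.965), Copz2 and Rbpms2. Cdh2 had the lowest best r of the 10 members, with levels spread over all 4 states.

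Some values are less certain as estimated counts. The share of values above 0 that were not whole numbers was 92.9% for Snai2, 91.6% for Cdh11, 82.6% for Prrx1 and 64.1% for Zeb2, against 0% for Snai1, Twist1, Twist2 and Vim. Snai2 has 1 transcript and Vim 6 in the gene models used here, so these shares did not follow the number of transcripts. The annotation release behind the counts is not given in the sources used here. Exons of Twist2, Zeb1 and Zeb2 overlap those of genes on the opposite strand, and without a stated strand setting such reads cannot be told apart.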

How the data were processed

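Single GFP+ cells were profiled by Smart-seq2. The authors trimmed reads with Trim Galore 0.6.5 (per the submitters' processing notes), pseudoaligned them to GRCm38 with kallisto and summed transcripts to genes with tximport. The deposited values are estimated counts, 35.97% of values above 0 not being whole, and they were summed without rounding. Gene models were GENCODE M21 and promoters RefSeq GRCm38.p6. Cells passed with no fewer than 1000 genes and 100000 counts and a mitochondrial share up to 30% (549 of 576, medians of 808006 to 1056674 counts a line). They were clustered with Seurat 5.3.0 (20 principal components, resolution 1.9), leaving the 10 members and related lists out of the variable genes. Doublets were not called.

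States were named from fixed marker lists, by mean marker level scaled to each list's highest cluster, a rule set after the clusters were seen, as was the removal of 1 cell with immune markers. Python 3.11.15, numpy 2.4.6 and scipy 1.17.1 gave levels and exact intervals. Ratios against a group under 3 counts use 3 counts for that group. The call rule (mean of at least 5 CPM, 2-fold on every plate or pair of plates) was run on simulated data. These were Poisson counts from the summed Prox1 line profile, with changes above the called fold in well expressed genes. Spread between cells, small groups and changes near the limits of the rule were therefore not tested. The design assumed no test, since embryos are not named in the labels. Named genes are the members, Cdh1, at most 4 called genes of each related list by size of ratio, and the 3 genes most like each member. Members and lists were chosen with earlier results of these data known. Alternatives changed the filter, states, clustering, level, low-value limit, fold, plates and cells.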

Additional observations from a re-analysis of the deposited data

How the results depend on the processing

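No comparison changed direction for a called member under any alternative run. The count of members called higher in mesenchymal than in epithelial cells of the Prox1 line, 9, stayed within 1.5 times under every alternative, and so did the 8 called lower in mesothelial cells, for which the alternative without plate B was not run because calls rest on that plate. Between endocrine and epithelial cells the count of 2 became 6 with a mean of at least 1 CPM, which lets more members in, and 4 without plate A. Between Nkx2.5 and Nkx3.2 mesenchyme the count of 2 became 0 with the mean of single-cell CPM, 0 after thinning to 100000 counts, 1 without proliferating clusters and 1 without cluster 6. Between Prox1 and Nkx3.2 mesenchyme the count of 0 became 3 without plates A and 2 without plates B. Counts without a plate rest on a single plate or pair of plates, and the share over all genes under such settings is not given. The cause was not tested, beyond the fewer plates or cells that some of these use. The alternatives without cluster 6, without cluster 7 and with the immune cell kept were chosen after seeing the data. Over single members and shares, 672 values kept their call or size, 20 moved, 16 gained and 10 lost a call. No paired analysis was possible because the results come from no test and the labels tie no cells of different lines together. Each line is 1 sample, so differences between lines have no replicate beyond the plates, and the 19 endocrine and 28 mesothelial cells limit the depth of shares in these states.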
